A study of Mus musculus with 3 samples.

Results

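Tcf15-positive cells were examined in sagittal sections of wild-type mouse embryos at embryonic day 9.5 (E9.5). A cell was a member when it held at least 2 Tcf15 counts and fewer than 3 counts in all of the endothelial genes Pecam1, Cdh5, Kdr, Emcn and Cldn5. By this rule 319 of 7164 kept E9.5 cells were members, out of 203079 kept cells in the series, where kept means at least 10 counts over the panel genes. The series consists of MERFISH, an imaging method that counts single RNA molecules of chosen genes in place, on 2 sections from different E9.5 embryos and 1 section from an E15.5 embryo. All 3 embryos were wild type and no treatment was named. The panel measured here held 296 genes, and 19 blank codes with no matching RNA gave the background. Section 1 and section 2 below are the E9.5 sections, and each stands for 1 embryo. Levels are given as counts per 10,000 panel counts, and intervals are 95% intervals that cover counting error only.

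Tcf15, also called paraxis, is a basic helix-loop-helix transcription factor of the paraxial mesoderm and of the epithelial somites that form from it. Somites give rise to the vertebrae, the skeletal muscle of the trunk and the dermis of the back, and they are cut off the paraxial mesoderm under a rhythm of Notch signalling. Heyl, a transcriptional repressor switched on by Notch, and Pdgfrb, a receptor for platelet-derived growth factor found on many mesenchymal and mural cells, were the other marker genes given for the group. Neither is limited to paraxial mesoderm.

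Section 1 held 18 members among 830 kept cells, a share of 2.17% (exact binomial interval 1.29 to 3.41). Section 2 held 301 among 6334, a share of 4.75% (4.24 to 5.31). The mean over the sections was 3.46% ± 1.83 (SD, n = 2). The endothelial limit removed 28 more cells with at least 2 Tcf15 counts, all of them in section 2. Most members lay close to the Tcf15 threshold: 10 of 18 and 169 of 301 held exactly 2 counts, and just below it 42 and 520 cells held 1. The highest Tcf15 count in a cell was 10 in section 1 and 7 in section 2. At least 3 counts were present in 8 and 132 members.

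Members were more deeply counted than other cells, so the share depended on depth. The median panel count was 99.5 in members and 59.5 in other cells of section 1, and 197 against 122 in section 2. After each cell was thinned to 50 counts and shallower cells were left out, the share was 1.62% (8 of 494 cells, 0.702 to 3.17) in section 1 and 1.03% (52 of 5073, 0.766 to 1.34) in section 2. The higher share of section 2 was therefore not seen at equal depth. Median cell volume, in the deposited unit, was 700 against 711 in section 1 and 892 against 734 in section 2. Blank codes took 0.579% of member counts in section 1 and 0.258% in section 2.

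The panel could test the label of paraxial mesoderm only in part. Of 23 listed genes of paraxial mesoderm and somites, 3 were in the panel, namely Tcf15, Heyl and Pdgfrb, and of 12 genes of the muscle lineage none was. Pdgfrb was higher in the members of both sections, and Heyl clearly so in section 2 alone, as the values below show. For a subset of section 2 the counts went against the label: summed over the 15 members lying outside the main areas, levels of cardiac genes were high. The group is therefore called Tcf15-positive cells here.

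The members were not spread evenly over the tissue. Joining members less than 80 µm apart gave 1 area of 17 cells in section 1, measuring 137 by 113 µm and lying in 1 imaging field, with 1 member elsewhere. In section 2 the largest area held 226 members and was an arc of 649 by 317 µm across 7 imaging fields. The second area held 60 members within 158 by 163 µm, of which 58 lay in 1 imaging field. The other 15 members of section 2 fell into 12 groups of at most 2 cells. Among the 10 nearest cells of a member, 15% were members in section 1 and 29.2% in section 2, a mean of 22.1% ± 10.1 (SD, n = 2). Around other cells these shares were 1.87% and 3.59%. A member was among the 10 nearest cells of 15 of 18 members and of 264 of 301. The median distance from a member to the next one was 16.8 µm in section 1 and 10.4 µm in section 2. These shares are descriptions, since Tcf15 counts define both the cells and their neighbours.

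**Figure D1:**
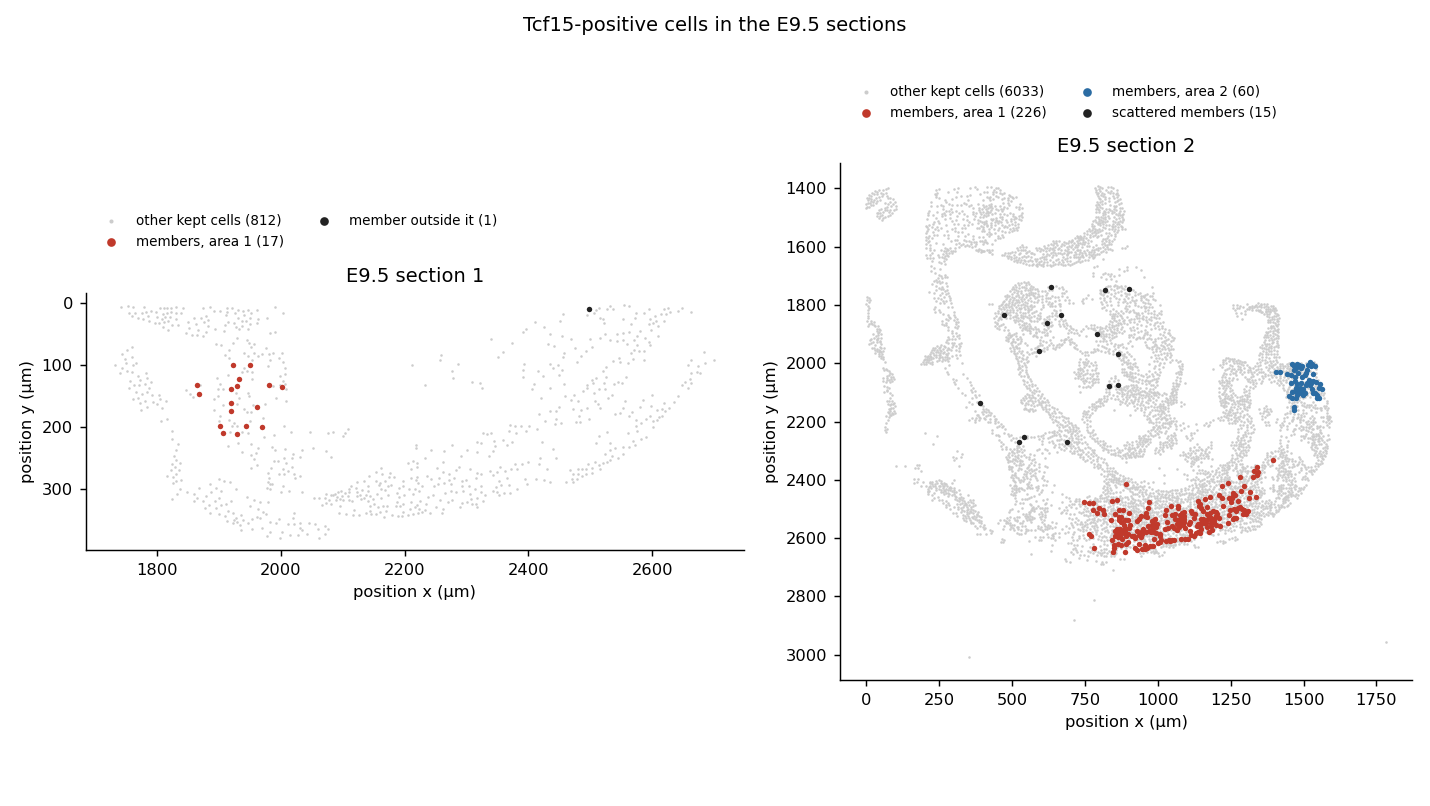
Positions of kept cells in the E9.5 sections (x and y in µm); grey points are other cells, and coloured points are Tcf15-positive cells by area. In section 1, 17 of 18 members lie in 1 area; in section 2, 226 lie in an arc, 60 in a second compact area and 15 are scattered over the middle of the section.

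The 15 scattered members of section 2 had a different content from the rest. They held a median of 336 counts against 195 in the 286 members of the larger areas, and 10 of the 15 had exactly 2 Tcf15 counts. Gata4, a cardiac and visceral transcription factor, stood at 177 per 10,000 in them and at 1.03 in the larger areas, and these 15 cells held 103 of the 109 Gata4 counts of all members of section 2. They also held 93 of 104 counts of Tbx20 and 87 of 100 of Gata5, further cardiac transcription factors, and 100 of 109 of Acta2, smooth muscle actin. The splanchnic mesoderm factor Foxf1 was also higher in them, at 78.8 against 4.65, with 46 of its 73 counts. These values are sums over the 15 cells. Heyl was at 8.57 in the scattered members and 105 in the larger areas, Pdgfrb at 22.3 and 99.4, and Foxd1 at 8.57 and 83.2. The scattered cells thus had low levels of Heyl, Pdgfrb and Foxd1. Cdkn1a, another gene called higher in members below, was at 141 in the scattered cells against 31.5. A single scattered cell held 81 of their 82 Cdkn1a counts, so that level does not describe the other scattered cells. What led to 2 Tcf15 counts in these cells was not tested.

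Members were compared with all other kept cells by summing counts per section and fitting edgeR's quasi-likelihood test with the section as a block. That gives 4 sums and 1 residual degree of freedom, so the spread was shared across genes. Of 289 genes tested without Tcf15 and the endothelial genes of the rule, 14 were higher in members (4.84%) and 35 lower (12.1%) at a Benjamini-Hochberg adjusted p below 0.05. All 14 higher genes had the same direction in both sections, as did 33 of the 35 lower ones. In section 1 the direction of some higher genes hung on 1 cell. Without the member with most counts of the gene, the section 1 fold was 0.773 for Heyl, 0.997 for Zic1 and 0 for Pdzk1ip1. It stayed above 1 for the other higher genes. Section 1 had few member counts, 1889 against 63861 in section 2. A count of 0 there allows a level of up to 15.9 per 10,000 (3 counts), and 21 of the 35 lower genes were at 0 in its members. A 0 was taken as the same direction, and 33 of the 35 lower genes had under 5 member counts in section 1. For lower genes the shared direction therefore says little.

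Foxd1 and Zic1 were among the transcription factors called higher. Of 6 tested genes of mesenchyme patterning, Foxd1 alone was called, and the median log2 difference of the list was -0.52 against -0.06 over all genes tested. Foxd1, a forkhead factor of mesenchymal progenitors, stood at 21.2 per 10,000 in members and 3.60 in other cells of section 1, and at 76.4 against 23.8 in section 2. It was the gene with the largest fitted difference among those called higher, with a log2 difference of 2.12 ± 0.52 (SE; edgeR adjusted p = 0.00192). Only 4 Foxd1 counts lay behind the section 1 value. Zic1, a zinc finger factor of the dorsal neural tube and of somites, had a log2 difference of 1.53 ± 0.49 (edgeR adjusted p = 0.0201). It was at 26.5 against 12.3 in section 1 and 43.4 against 16.7 in section 2. In both sections the members were above the other cells for both factors, but the section 1 interval of Zic1, 0.681 to 5.23 times, included 1.

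The marker genes given with the group behaved unequally between the embryos. Pdgfrb stood at 74.1 per 10,000 in members and 27.9 in other cells of section 1, and at 92.4 against 34.8 in section 2. That is a fold of 2.66 in each section, and the fitted log2 difference was 1.61 ± 0.45 (edgeR adjusted p = 0.0103). All fitted differences use scaling factors, 0.859 for members and 1.05 for other cells of section 2. With them the fitted fold of Pdgfrb, 3.05, lay above that of both sections. Heyl stood at 96.3 against 27.0 in section 2, a fold of 3.57 (3.26 to 3.89). In section 1 it stood at 42.4 against 30.6, a fold of 1.38 (0.590 to 2.78), from 8 counts in 4 cells. The fitted log2 difference of Heyl was 1.55 ± 0.47 (edgeR adjusted p = 0.0133), and it rests on section 2, since the section 1 interval included 1. Heyl and Pdgfrb were proposed with these data in view, so their calls are not independent support for the name of the group.

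Selenop, Cxcl12, Sparcl1, Fstl1 and Gpc3 were higher in members of both embryos. Selenop, which carries selenium between tissues, was at 222 against 50.2 per 10,000 in section 1 and at 120 against 41.4 in section 2 (log2 difference 2.00 ± 0.42, edgeR adjusted p = 0.000277). Cxcl12, the chemokine that attracts Cxcr4-bearing cells, was at 101 against 20.5 and at 125 against 49.6 (log2 difference 1.92 ± 0.44, edgeR adjusted p = 0.000844). Sparcl1, a matricellular protein, was at 84.7 against 31.6 and at 145 against 52.5 (log2 difference 1.64 ± 0.44). The secreted glycoprotein Fstl1 and the cell-surface proteoglycan Gpc3 had fitted log2 differences of 1.20 each. Their folds were larger in section 1, 3.09 and 2.96, than in section 2, 1.38 and 1.49. For all 5 genes the interval of each section lay above 1. Without the member with most Sparcl1 counts, the section 1 fold of Sparcl1 was 1.68 (0.759 to 3.25). Outside areas of low Gnas count, which are described further on, none of the 5 genes was called. There Fstl1 and Gpc3 had log2 differences of 0.32 and 0.31. Those of Selenop, Cxcl12 and Sparcl1 were 1.35, 1.63 and 1.19 (edgeR adjusted p = 0.152, 0.100 and 0.348).

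Other higher genes were Cdkn1a, Ncl, Birc5 and Pdzk1ip1. Ncl, a protein of the nucleolus, was at 323 against 130 per 10,000 in section 1 and at 203 against 108 in section 2, and 95.3% of section 2 members held a count. Pdzk1ip1 rested on 1 count in section 1 and 30 in section 2 and was not called without scaling factors (adjusted p = 0.092 in edgeR). Cdkn1a, the cell-cycle inhibitor p21, was at 68.8 against 16.2 and at 41.5 against 13.9 (log2 difference 1.97 ± 0.46, edgeR adjusted p = 0.00108), but few cells carried it. In section 2 it was counted in 62 of 301 members, 1 of them a scattered cell with 81 of the 265 counts, and the 30 members with most held 87.9%. In section 1 it was counted in 4 of 18 members. Without the highest member of each section, a comparison added after the data were seen, the log2 difference of Cdkn1a was 1.29 and still passed.

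**Figure D2:**
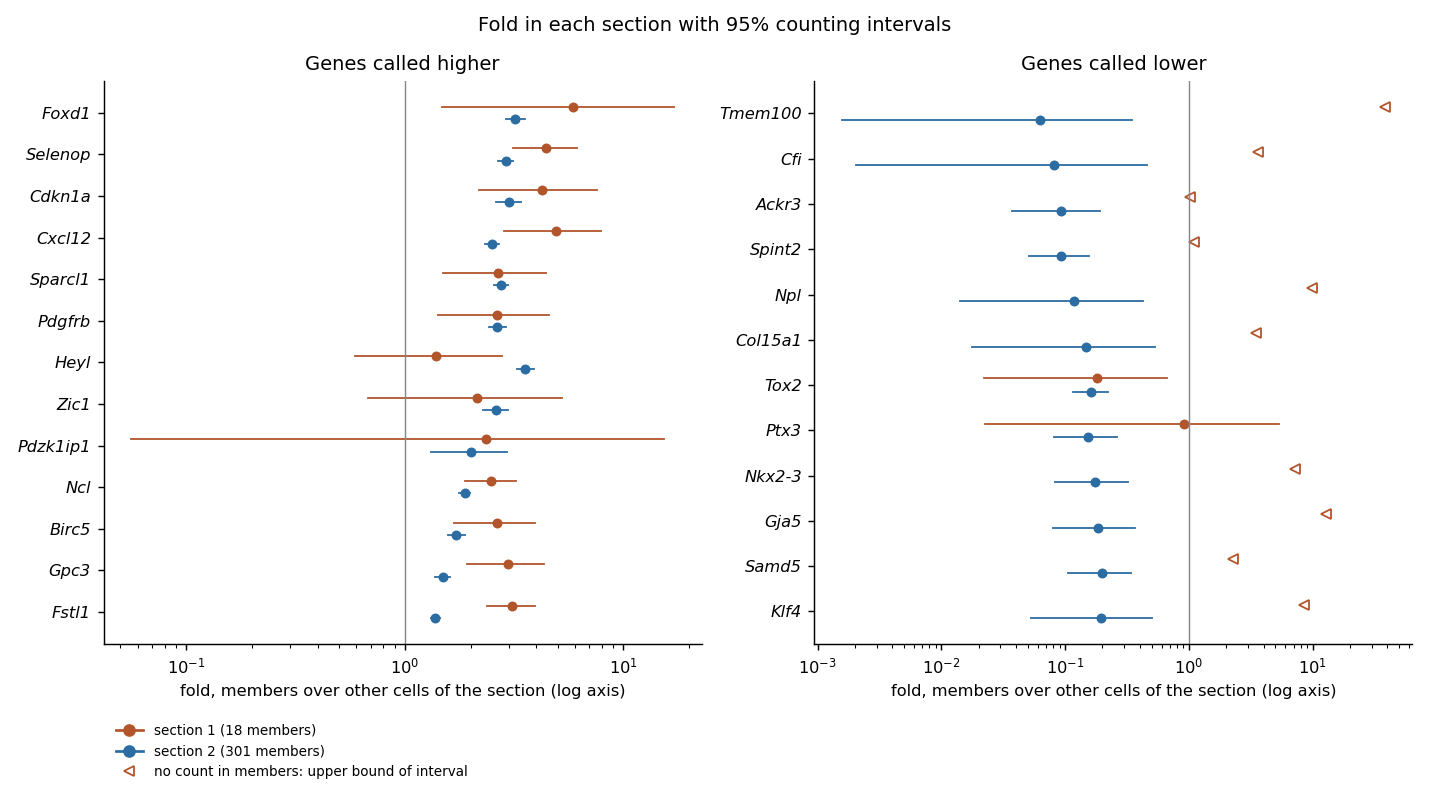
Fold of members over other cells in each section on log axes, with 95% counting intervals, for genes called higher (left) and 12 genes called lower (right). Points of section 2 lie between 1.38 and 3.57 for the higher genes and between 0.062 and 0.199 for the lower ones; open triangles mark the upper bound where section 1 members held no count.

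Of 11 tested mitosis genes 1 was called higher, against 4.84% of all genes tested. It was Birc5, which encodes survivin, a part of the chromosomal passenger complex. It was at 132 against 50.2 per 10,000 in section 1 and at 88.6 against 51.4 in section 2 (log2 difference 1.24 ± 0.42, edgeR adjusted p = 0.026). The median log2 difference of the mitosis list was 0.48, against -0.06 over all genes tested. None of 4 DNA synthesis genes passed, with a median of 0.80: Pclaf, a clamp-binding protein, was at 51.8 against 28.7 in section 2 and 42.4 against 29.4 in section 1, and Rrm2, a subunit of ribonucleotide reductase, at 40.7 against 32.3 and 90.0 against 47.7. Of 4 cell-cycle exit genes only Cdkn1a passed. Prtg, a receptor-like gene of the early embryo, was at 672 against 477 in section 1 and at 425 against 304 in section 2 (log2 difference 0.67 ± 0.36, edgeR adjusted p = 0.188).

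Of the Notch pathway, 6 genes were tested and Heyl alone was called. Notch1, the receptor, went opposite ways in the embryos: 249 in members against 404 per 10,000 in other cells of section 1, and 252 against 151 in section 2. Its fitted log2 difference was 0.25 ± 0.39 (edgeR adjusted p = 0.669). Members of the embryos had almost the same Notch1 level, and it was the other cells that differed. The ligand Jag1 was at 5.29 against 19.05 and at 11.3 against 35.6, with a log2 difference of -1.41 ± 0.55 that missed the threshold (edgeR adjusted p = 0.058).

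All 4 cardiac transcription factors of the panel were lower in members. Gata4 was at 17.1 per 10,000 against 87.9 in section 2 and had no count in members of section 1, where other cells stood at 2.85. Hand2 was at 15.9 against 43.9 in section 1 and at 14.3 against 56.3 in section 2. The fitted log2 differences were -2.09 ± 0.58 for Gata4, -1.71 ± 0.56 for Gata5, -1.62 ± 0.51 for Hand2 and -1.46 ± 0.53 for Tbx20 (edgeR adjusted p = 0.0104, 0.0208, 0.0167 and 0.0405). Most of what remained of these genes was in the scattered members: with members of the larger areas alone, a comparison added after the data were seen, the differences were -6.11, -4.43, -2.95 and -4.38. Their level in members of the larger areas of section 2 was between 1.03 and 4.31 per 10,000.

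Of 4 visceral mesoderm genes tested 3 were called lower as well, against 12.1% of all genes tested. Foxf1, a forkhead factor of splanchnic mesoderm, was at 5.29 against 18.6 per 10,000 in section 1 and at 11.4 against 43.1 in section 2 (log2 difference -1.63 ± 0.55). Wnt4, a secreted signal, was at 10.6 against 79.6 and at 10.6 against 35.5 (log2 difference -1.75 ± 0.50). Nkx2-3, a homeobox factor of gut mesenchyme, was at 1.57 against 8.98 in section 2 and at 0 in section 1. Of 5 Wnt and BMP signal genes 3 were lower, and Wnt4 is counted in this list as well. Tmem100, a target of BMP9, was at 0.157 against 2.52 in section 2 from a single member count. The Wnt antagonist Dkk2 was at 2.19 against 11.5 there.

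Few mural and matrix genes were called. Of 10 mural genes tested, Pdgfrb was higher, and Acta2 and the adhesive glycoprotein Vtn were lower. Over all genes tested, 4.84% were called higher and 12.1% lower. Vtn was at 5.01 against 23.6 per 10,000 in section 2 and at 0 in section 1. Of 11 fibrillar and elastic matrix genes 2 were lower and none higher, and their median log2 difference, -0.06, was that of all genes tested. Col1a2, a chain of type I collagen, was at 5.29 against 101 in section 1 and at 12.5 against 30.5 in section 2, and the proteoglycan Dcn was at 2.66 against 10.9 in section 2. Col15a1 of the basement membrane rested on 2 member counts and lost its call in several comparisons, among them the one with other cells held to the same endothelial limit (edgeR adjusted p = 0.205).

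Spint2, Ackr3, Tubb2b and Tox2 were also called lower. Spint2, a protease inhibitor of epithelia, was at 2.19 against 23.6 per 10,000 in section 2 and had no count in section 1, where other cells stood at 18.1 (log2 difference -3.21 ± 0.65, edgeR adjusted p = 0.000277). The other epithelial gene tested, Wfdc2, had a log2 difference of -0.25 (edgeR adjusted p = 0.797). Ackr3, the receptor that clears Cxcl12, was at 1.10 against 11.9 in section 2 and at 0 against 19.5 in section 1 (log2 difference -3.25 ± 0.72, edgeR adjusted p = 0.000716). The tubulin gene Tubb2b was the only one of 7 neural genes called, at 1.88 against 7.94 in section 2. Slc1a3, a glutamate transporter of glia, had the largest fitted difference towards members among genes not called, with a log2 difference of 1.26 ± 0.51 (edgeR adjusted p = 0.066). Tox2, a nuclear protein with an HMG box, was at 10.6 against 58.2 in section 1 and at 6.26 against 38.6 in section 2. It was the only one of the 12 lowest genes whose section 1 interval excluded 1; the others, among them Cfi, Npl, Ptx3, Samd5 and Klf4, had at most 14 member counts in section 2. Unc5b, a netrin receptor, was at 20.5 against 67.1 in section 2, and Epas1, the hypoxia factor of endothelium, at 5.48 against 21.2. Since the rule removes cells with endothelial counts, other cells were also held to the same endothelial limit. Epas1 and the vessel connexin Gja5 were still called lower, with log2 differences of -1.58 and -1.63 (edgeR adjusted p = 0.0239 and 0.0497), whereas the endothelial genes Aplnr and Clec14a no longer passed, at -0.99 and -0.77 (edgeR adjusted p = 0.288 and 0.372).

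H19, an imprinted long noncoding RNA of embryonic mesoderm and endoderm, was lower in members of both embryos. It was at 228 against 1013 per 10,000 in section 1 and at 128 against 454 in section 2 (log2 difference -1.79 ± 0.38, edgeR adjusted p = 0.000277). Of 5 imprinted genes it alone passed. The counts were unevenly held: 108 of 301 members of section 2 had any, and the 30 highest had 70.9% of them. In section 1 other cells within 20 µm of a member stood at 46.2 and those at 20 to 50 µm at 21.0, both below the members, while cells at 100 to 200 µm stood at 1666. Cells at 50 to 100 µm stood at 1341, but those over 200 µm away stood at 112, again below the members. The lower H19 of the members of section 1 is therefore relative to cells 50 to 200 µm away.

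A count was also made with no model, of genes past 1.5-fold in both sections with at least 20 counts expected in the smaller group. Only 21 genes had enough counts in section 1. Of these, 2 were higher (9.52%), Ncl and Cnbp, and 4 were lower (19.0%), Vim, Crabp1, Lin28a and H19. Cnbp and Vim are named because they met this rule. Vim, the intermediate filament of mesenchyme, was at 154 against 401 per 10,000 in section 1 and at 155 against 405 in section 2 and was also called by edgeR (adjusted p = 0.0198). Lin28a, an RNA-binding protein of early development, was at 63.5 against 111 and at 104 against 196.

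Levels of some other genes ran with the Tcf15 count of the cell in section 2. Heyl stood at 21.0, 67.9, 87.4, 102 and 112 per 10,000 in cells with 0, 1, 2, 3 and at least 4 Tcf15 counts. Pdgfrb stood at 32.6, 58.1, 91.8, 90.0 and 97.5, and Selenop at 38.5, 66.6, 107, 112 and 168. H19 ran the other way, from 468 through 282, 165 and 128 to 25.4, as did Gnas, from 226 through 153, 110 and 79.1 to 23.8. Not all genes called higher kept rising among members with 2, 3 and at least 4 counts. Over these classes Foxd1 stood at 76.9, 78.0 and 72.9, Cxcl12 at 126, 132 and 112, and Cdkn1a at 51.6, 31.9 and 27.0. Cells with 1 Tcf15 count, which are counted as other cells above, lay between the rest and the members for each of these genes. The median total count also differed between these classes, and its part in the trend was not tested. In section 1 only 3 cells had 4 or more Tcf15 counts, and no order could be read there.

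**Figure D3:**
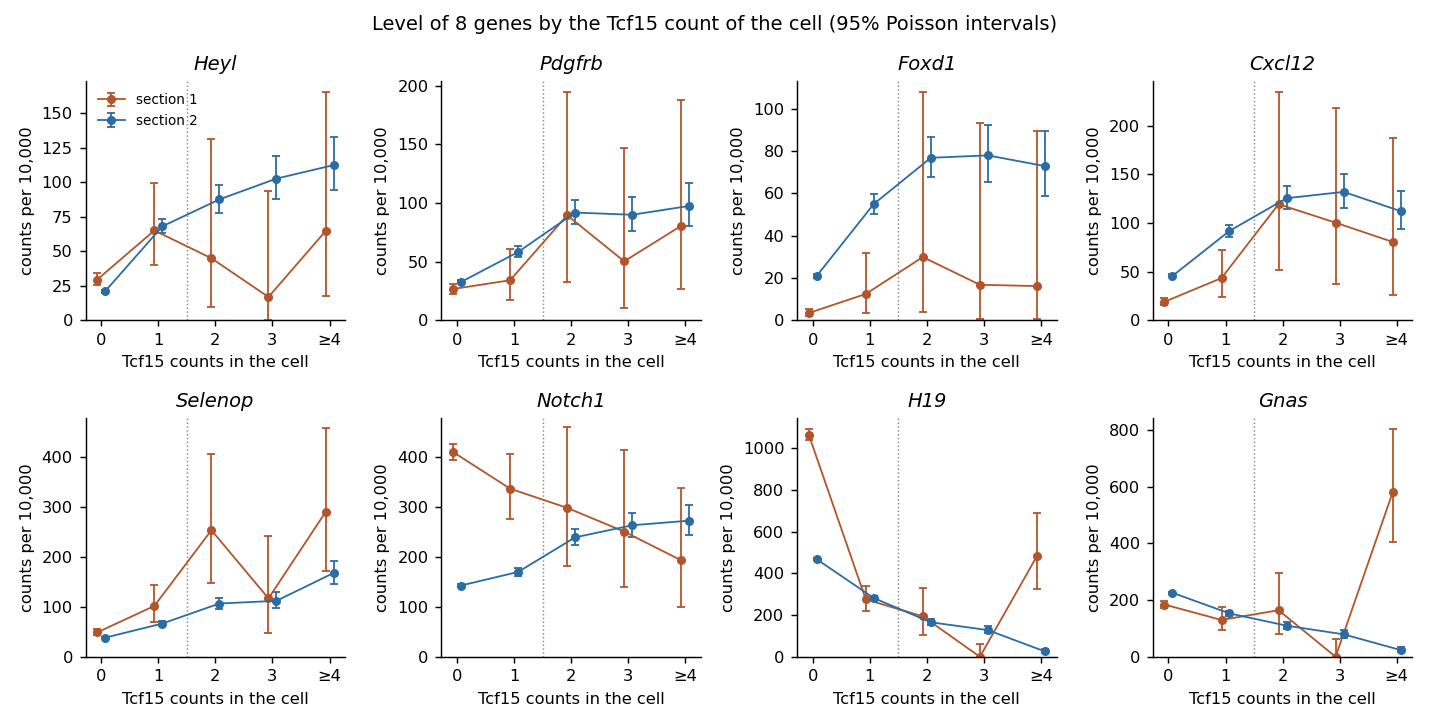
Level of 8 genes (counts per 10,000, 95% Poisson intervals) in cells grouped by their Tcf15 count, for each E9.5 section; the dotted line is the threshold for members. In section 2 Heyl goes from 21.0 to 112 and H19 from 468 to 25.4, while the section 1 intervals are wide.

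For some genes the nearest other cells of section 2 were close to the members in level. There Heyl was at 96.3 per 10,000 in members, 83.8 in other cells up to 20 µm from one, 37.5 at 20 to 50 µm, 14.8 at 50 to 100 µm and 7.91 at 100 to 200 µm. Foxd1 was at 76.4, 67.6, 31.6, 16.0 and 4.07 over the same steps, and Cxcl12 at 125, 118, 76.1, 40.8 and 22.7. In section 1 Cxcl12 was at 101 in members, 49.8 up to 20 µm and 31.6 at 20 to 50 µm, whereas Heyl was highest at 20 to 50 µm, at 116. Other genes of section 2 differed more within the first 20 µm. Selenop was at 120 in members and 80.5 in other cells that near, Sparcl1 at 145 and 89.8, and H19 at 128 and 248. Pdgfrb was at 92.4 and 70.6. The intervals did not overlap for any of these genes, nor for Heyl, where they nearly met (88.8 to 104 and 79.2 to 88.6).

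**Figure D4:**
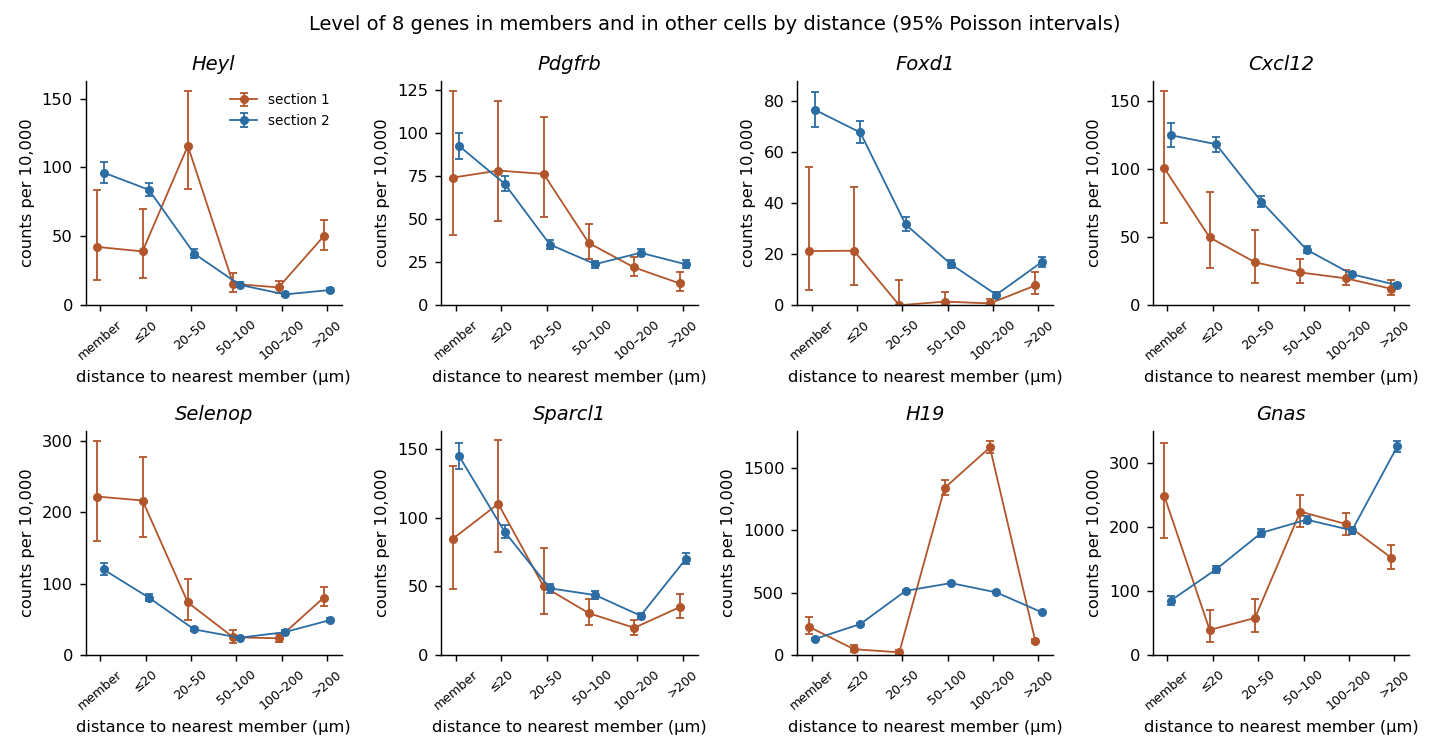
Level of 8 genes (counts per 10,000, 95% Poisson intervals) in members and in other cells by distance to the nearest member (µm), for each E9.5 section. Heyl, Foxd1 and Cxcl12 of section 2 are nearly as high in other cells up to 20 µm away as in members and low beyond 100 µm; H19 of section 1 peaks at 100 to 200 µm.

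When the other cells were limited to those among the 30 nearest of a member, a comparison added after the data were seen, edgeR called none of 280 genes at the adjusted threshold. At an unadjusted p below 0.05, 4 genes were higher and 17 lower. The signs of all 49 called genes were kept, but the log2 difference was 0.16 for Heyl, 0.57 for Pdgfrb, 0.93 for Foxd1 and 0.87 for Cxcl12. It was 1.07 for Selenop and 1.39 for Cdkn1a. The calls given above were made against the rest of the section, and none was made against the nearest cells. On simulated counts for members against all other cells, edgeR called only 20.8% of genes changed by 1 on the log2 scale. Missing calls here therefore do not show equal levels in members and nearest cells.

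Regions of low Gnas count moved with the members. Gnas, which encodes a G-protein subunit made in nearly all cells, took less than 1% of counts around 61.1% of members (11 of 18) and 50% of other cells in section 1, and around 77.1% (232 of 301) and 42.9% in section 2. Outside such areas edgeR called 2 genes higher, Foxd1 and Cdkn1a, and 10 lower, with the sign of 48 of the 49 genes kept. Zic1 was the exception, with a log2 difference of -0.01. The scattered cell with 81 Cdkn1a counts lay outside such areas, and its part in the Cdkn1a call there was not tested. Inside such areas alone, in a comparison added after the data were seen, no gene was called higher and 5 lower, and Col1a2 turned to 0.70. The part that Gnas-poor areas play in the main calls was not tested further.

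The arc and the second area of section 2 differed from each other. Genes with at least 30 counts in these members were compared at 2-fold with a counting interval excluding 1, which describes 1 section and carries no test over embryos. Of 153 genes, 17 were higher in the arc (11.1%) and 5 in the second area (3.27%). Higher in the arc were Nrp2, a semaphorin and VEGF co-receptor, at 27.8 against 0.860 per 10,000, Gnai2, a G-protein subunit, at 39.7 against 5.16, and Dlk1, an imprinted membrane protein, at 282 against 88.5. The homeobox factor Meis2, at 55.8 against 18.1, and Stra6, the vitamin A transporter, at 29.3 against 12.04, were also higher there. Higher in the second area were Unc5b at 17.2 against 4.74, Wnt4 at 13.8 against 5.82, Mecom at 13.8 against 6.68, Lxn at 12.04 against 5.82 and Gadd45g at 10.3 against 3.88.

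The genes that marked the group differed less between the areas. Heyl was at 107 per 10,000 in the arc and 96.3 in the second area, Foxd1 at 85.8 and 73.1, and Zic1 at 48.3 and 44.7, each with an interval including 1. Pdgfrb was at 91.8 and 130, Selenop at 118 and 179, and Cxcl12 at 122 and 181. Among other cells up to 40 µm from the areas, 16 of the 17 arc genes and 4 of the 5 others had the same sign. The difference was at least 2-fold in these cells for 13 of the 17 but for 1 of the 5. All 60 members of the second area lay in low-Gnas surroundings against 73.5% of those of the arc, and Gnas itself was at 28.4 against 83.8. Without the second area the comparison with all other cells called 10 genes higher and 19 lower.

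**Figure D5:**
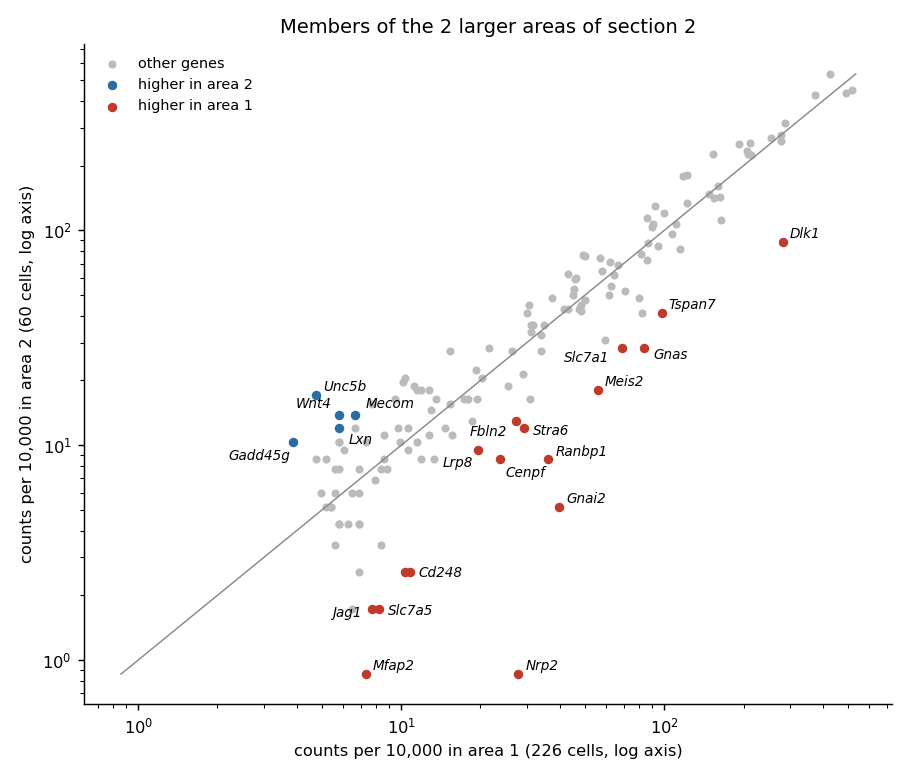
Level of each of 153 genes in members of the arc (area 1, x axis) and of the second area (area 2, y axis) of section 2, in counts per 10,000 on log axes with the line of equality. Nrp2, at 27.8 and 0.860, lies farthest from the line; 17 genes are higher in area 1 and 5 in area 2.

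Members were also compared with Foxd1-positive cells without Tcf15, since Foxd1 had the largest fitted difference among the genes called higher. These were cells with at least 2 Foxd1 counts, fewer than 2 Tcf15 counts and the same endothelial limit. Section 2 held 483 of them and section 1 only 3, with 216 counts, so the comparison rests on section 2. Of the 483 cells, 220 (45.5%) lay up to 20 µm from a member, and conversely 124 of 301 members (41.2%) had at least 2 Foxd1 counts. The median count per cell in section 2 was 197 in both groups, with quartiles of 144 and 260 in members and 141.5 and 280 in Foxd1-positive cells.

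Of 241 genes tested with edgeR, 3 were higher in members (1.24%), Gata4, Kcne3 and Gadd45g, and 5 lower (2.07%), Ackr3, Htra3, Ptx3, Spint2 and Cox6b2. Gata4 rested on the scattered members, since 6 of its 109 counts came from the 286 members of the larger areas. With members of the larger areas alone, a comparison added after the data were seen, edgeR called 1 gene higher and 6 lower. With the members of the larger areas of section 2 alone, 22 of 236 genes were at least 2-fold higher than in Foxd1-positive cells (9.32%) and 57 at least 2-fold lower (24.2%), with counting intervals excluding 1. Zic1 was at 47.6 against 17.7 per 10,000, a fold of 2.68 (2.22 to 3.25). Heyl was at 105 against 47.4, Notch1 at 274 against 115 and Selenop at 130 against 53.7. In the edgeR fit over both sections none of these 4 was called, with adjusted p = 0.683 for Zic1, 0.878 for Heyl, 0.399 for Notch1 and 0.536 for Selenop. The fitted log2 difference of Heyl was -0.38, as section 1 went the opposite way (-3.30, against only 3 Foxd1-positive cells).

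Visceral and matrix genes were among the 57 lower ones of section 2. Foxf1 was at 4.65 per 10,000 in members of the larger areas and 64.9 in Foxd1-positive cells, Wnt4 at 7.41 against 37.2 and Col1a2 at 12.1 against 59.9. These 3 were not called by edgeR over both sections (adjusted p = 0.320, 0.536 and 0.352). Ptx3, which was called, was at 1.55 against 9.48. H19 was at 92.4 against 357 and Gnas at 72.7 against 224. Low-Gnas surroundings held 34.0% of the Foxd1-positive cells of section 2 against 77.1% of the members, and their part in these folds was not tested.

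Across 132 squares of 100 µm in section 2 with at least 10 cells, the share of Tcf15 counts ran most closely with those of Heyl (Spearman's rho 0.51), Cldn5 (0.50), Cfl1 (0.48), Pdgfrb (0.47) and Cxcl12 (0.46). The median over all genes was 0.10. Squares share a section and its depth, so these values are descriptions. Cldn5, a tight junction protein of endothelium, is among the genes the rule keeps low in members, and its likeness refers to all cells of a square.

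At E15.5 the same rule found 139 of 195915 kept cells, a share of 0.0709% (0.0596 to 0.0838). There 91 of 230 cells with at least 2 Tcf15 counts (39.6%) had 3 or more endothelial counts. At E9.5 this was so for 28 of 329 such cells of section 2 and none of 18 of section 1. With 1 section at E15.5 and unequal depth, no test was made between the stages.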

How the data were processed

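Per the labels, probes, imaging, segmentation and decoding came from the Vizgen MERSCOPE platform. The submitters' processing notes name Scanpy and Seurat, with no role given. The deposited files hold counts per cell and gene, not normalized by the authors, with cell volume as a deposited signal, stain brightness as a deposited intensity and cell positions as a deposited score, read here as micrometres. Cells with at least 10 panel counts were kept. Doublets were not called. No cell ID was shared between sections.

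Counts of members and other cells were summed per section and tested with edgeR 4.0.16 (TMM factors, section as block, at least 30 summed counts). The block pairs sums of 1 section. Ratio intervals are conditional binomial, and shares are exact binomial. Alternatives used DESeq2 1.42.0, other factors, gates and cell sets. On simulated counts for members against other cells, edgeR called 72.7% of genes changed by 2 on the log2 scale, 20.8% of those changed by 1 and 1.31% of unchanged ones. The simulation gave all genes the same dispersion, as many rises as falls and the same change in both sections. Rates in the real data may differ. Genes named are the 15 highest and 12 lowest with 1 direction, filled by size, and up to 4 of the most counted per list; some genes are not reported here. The members and lists were chosen with earlier results of these data known.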

Additional observations from a re-analysis of the deposited data

How the results depend on the processing

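Of the 49 genes called between members and other cells, TMM and upper-quartile factors shared all 49 and library size alone shared 48, though the median log2 difference of all genes moved from -0.06 to -0.16 and -0.31. Calls fell to 1 without the replicate block (no pairing of sums by section), 13 with DESeq2, 12 without areas of low Gnas, 9 with at least 4 Tcf15 counts and, in comparisons added after the data were seen, 29 without the second area, 5 in low-Gnas areas alone and 0 against the 30 nearest cells. With cells of at least 100 counts, 5 genes were higher and 62 lower. Against Foxd1-positive cells the 8 calls became 5 with library size alone, 14 with upper-quartile factors, 4 with no filter, 33 with cells of at least 100 counts, 15 without other cells within 20 µm, and 0 without the block, with DESeq2, outside low-Gnas areas or with at least 4 Tcf15 counts. The 6 of 21 genes with enough counts that passed 1.5-fold in both sections became 3 of 9 outside low-Gnas areas and 2 of 6 with at least 4 Tcf15 counts. With 1 section alone they became 12 of 21 to 124 of 231. The mean share of members was 10.1%, 1.52% and 0.575% with at least 1, 3 and 4 Tcf15 counts, 5.64% in cells of at least 100 counts and 1.32% after thinning; single sections gave 2.17% to 4.75%, and 15% to 29.2% for neighbours. Signs turned for Zic1 (-0.01) outside and Col1a2 (0.70) inside low-Gnas areas, for Prtg (-0.17), Aurka (-0.13) and Notch1 (-0.44) with at least 4 Tcf15 counts, and for Notch1 with deeper cells (-0.11), against the nearest cells (-0.048), inside low-Gnas areas (-0.80) and in section 1 alone (-0.70 there, 0.75 in section 2). The causes were not tested.

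Depth limits section 1 most: 103 of 296 genes had no count in its 18 members. Each embryo gave 1 section, and the test has 1 residual degree of freedom.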

Other observations

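Other lists of the panel showed few calls. Of 6 macrophage genes tested none passed in edgeR; their summed level was 42.4 per 10,000 in members and 46.8 in other cells of section 1, and 20.04 against 20.8 in section 2. Of 2 erythroid genes, Car2, a carbonic anhydrase, was called lower, but its direction was opposite in section 1, with 10.6 in members against 7.20. Of 5 genes of IGF binding and retinoid handling none passed; Igfbp5 was at 101 against 45.7 in section 1 and at 111 against 166 in section 2, opposite directions.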
